A study of Homo sapiens with 6 samples.

Results

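The kinetochore is the protein structure built on each centromere that holds a chromosome to the spindle, and the spindle checkpoint is the signal that unattached kinetochores send to delay the separation of sister chromatids. The 45 genes described here encode proteins of the centromere, the kinetochore and that checkpoint, and were selected by name from what their products are known to do. A gene was measured where a row of the array table was annotated with its symbol alone, which held for 42 of the 45, each with 1 row. CENPP, PMF1 and BUB1B were on rows that also name other genes and were kept out of every count. The table gave 22411 named genes in all.

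The cells were U87, an established human glioblastoma line, cultured in EMEM medium (10% serum, 1 mM pyruvate) over 48 h before treatment began. In the treated group, 3 arrays held RNA of cells incubated for a further 48 h with a carborane-bearing amino acid at 1 mM, a compound known here only by that description (a carborane is a cage of boron, carbon and hydrogen atoms). In the control group, 3 arrays held RNA of untreated cells, with no vehicle named. All arrays are of this 1 line, and the labels say that treatment was in triplicate but not that the replicates were separate cultures, so the p-values reflect spread among these arrays that may be technical only. The comparison asks what the compound does to gene expression in these cells.

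Values are log2 signals, so a difference of 1 is a doubling on the array's scale. Across all genes, which are not independent of each other, Pearson's r was 0.9978 to 0.9984 for 2 arrays within a group and 0.9587 to 0.9629 for a treated array with a control array. Of genes listed for the glioma line, VIM, FN1 and CD44 were strong, with treated means of 15.96, 15.59 and 14.45, against control means of 16.67, 16.46 and 14.01. NES averaged 5.78 in treated and 7.67 in control cells. The astroglial genes SOX9, ALDOC and SLC1A3 had a signal, averaging 8.48, 6.95 and 6.87 in treated cells, against 10.34, 8.86 and 7.84 in control cells. GFAP, also astroglial, was near background, at 5.43 in treated and 5.54 in control cells. So were S100B, AQP4, OLIG2, SOX10 and MBP and every measured leukocyte, epithelial and endothelial marker. All of these were below 6.12, the median over genes of their mean signal. That median is used below as a mark of low signal, since no detection calls were used, and changes of genes at or under it are uncertain in size. MKI67, the gene of the proliferation antigen Ki-67, averaged 7.43 ± 0.11 in treated and 14.69 ± 0.10 in control cells (SD, n = 3 each).

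As background, a centromere is marked by CENP-A, a histone H3 variant that is put into chromatin by dedicated loading factors. The constitutive centromere-associated network sits on that chromatin throughout the cell cycle and carries the outer kinetochore, whose NDC80 complex grips microtubules in mitosis. Checkpoint proteins and a fibrous corona with motor proteins assemble on the outer kinetochore before microtubules attach. Many of these genes are transcribed mainly in G2 and mitosis, under the MuvB complexes and FOXM1. These act in part through a promoter element named CHR (cell cycle genes homology region). CCAAT boxes are a further element found in many such promoters.

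Most kinetochore genes were far lower in treated cells. Of the 42 measured members, 39 were called lower, 1 (MIS12) was called higher, and CENPT and MAD1L1 were not called (limma, Benjamini-Hochberg adjusted p under 0.05 over all genes tested). Of all genes tested, 21.6% were called lower, 24.0% higher and 45.6% in either direction. The median log2 change of the members was -2.87, and that of all genes was 0.01. In 35 members the fall was 1 or more, in 33 it was 2 or more and in 12 it was 4 or more, and the same marks were passed by 4.94%, 1.60% and 0.370% of all genes. Of the members, 26 were among the 1% of genes with the lowest changes, and 36 among the lowest 5%.

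The treated and control values did not overlap in 41 of the 42 members, CENPT being the exception, whereas 53.5% of all genes had no overlap. The mean signal over the members was 7.15, 7.12 and 7.10 on treated arrays 1, 2 and 3, against 10.06, 10.07 and 10.15 on control arrays 1, 2 and 3. Arrays of one group thus lay close together, and the groups were well apart. The SD of a member over the arrays of a group had a median of 0.09 in treated and 0.06 in control cells and was highest for BIRC5 in treated cells (0.39) and OIP5 in control cells (0.33). In treated cells 9 members averaged below 6.12, and in control cells 0 did. The members nearest to that mark were SPC25 and SKA1, both at 6.01, and ZWINT and HJURP, at 6.13 and 6.18. In a bulk sample, fewer dividing cells and less RNA per dividing cell cannot be told apart, which holds for every fall described here, and the part of the lower MKI67 signal in them was not tested.

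**Figure D1:**
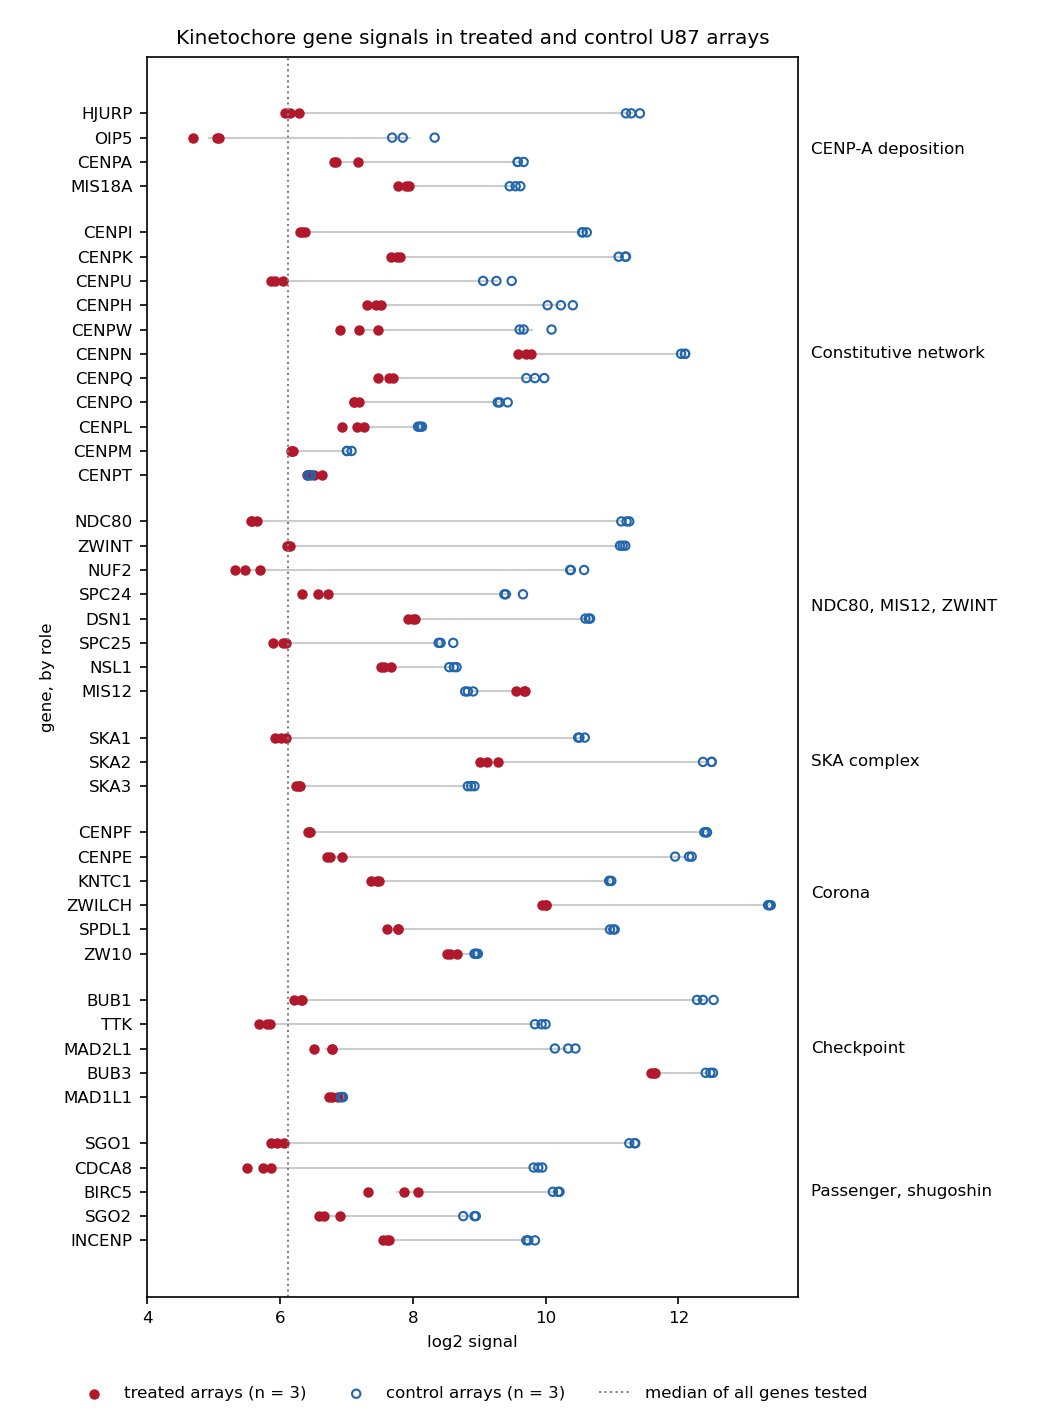
Log2 signal of each measured member (rows, grouped by role and sorted by change) on the 3 treated arrays (filled points) and the 3 control arrays (open points), with grey lines joining the group means and a dotted line at 6.12, the median of the genes tested. Treated points lie left of the control points in all rows but those of CENPT, where they overlap, and MIS12, where they lie to the right.

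Promoters are shown for the 3 members with the most negative changes and the 3 with the highest. The letters upstream of genes that fell most can thus be set beside those of genes not called lower. Signals of MAD1L1 and CENPT were close to the low-signal mark, so a fall of either may have been hard to see. RefSeq's table (GRCh38.p14) held promoters for 34 of the 42 members, each running from 250 bases before the start of the gene to 50 from it on, given 5′ to 3′ on the gene's strand. Capitals mark letters of the CHR element (TTTGAA or TTCGAA), the CCAAT box (CCAAT) and an E2F site (TTTCCCGC or TTTGGCGC), each searched on both strands. BUB1 lies on chr2:110678014-110678313 (minus strand), CENPF on chr1:214602945-214603244 (plus) and NDC80 on chr18:2571307-2571606 (plus), where the 2 CHR matches abut without overlapping. MAD1L1 lies on chr7:2232896-2233195 (minus), CENPT on chr16:67847644-67847943 (minus) and MIS12 on chr17:5486124-5486423 (plus).
BUB1: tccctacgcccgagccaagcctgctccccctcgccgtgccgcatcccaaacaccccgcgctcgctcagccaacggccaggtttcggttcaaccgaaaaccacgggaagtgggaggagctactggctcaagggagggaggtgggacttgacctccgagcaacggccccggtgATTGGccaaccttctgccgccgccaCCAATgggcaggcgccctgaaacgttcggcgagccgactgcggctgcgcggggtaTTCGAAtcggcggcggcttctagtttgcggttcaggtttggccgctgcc
CENPF: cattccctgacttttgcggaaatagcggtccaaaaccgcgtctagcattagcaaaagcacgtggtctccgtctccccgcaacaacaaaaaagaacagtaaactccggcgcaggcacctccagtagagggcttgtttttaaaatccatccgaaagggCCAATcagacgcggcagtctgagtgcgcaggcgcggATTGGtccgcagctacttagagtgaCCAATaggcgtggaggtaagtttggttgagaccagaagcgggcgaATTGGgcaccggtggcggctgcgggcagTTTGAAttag
NDC80: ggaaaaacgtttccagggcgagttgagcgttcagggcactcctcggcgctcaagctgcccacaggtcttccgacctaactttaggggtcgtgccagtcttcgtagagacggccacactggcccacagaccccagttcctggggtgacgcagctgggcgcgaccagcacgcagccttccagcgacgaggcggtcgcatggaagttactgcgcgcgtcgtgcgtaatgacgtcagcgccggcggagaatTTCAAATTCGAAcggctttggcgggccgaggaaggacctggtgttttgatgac
MAD1L1: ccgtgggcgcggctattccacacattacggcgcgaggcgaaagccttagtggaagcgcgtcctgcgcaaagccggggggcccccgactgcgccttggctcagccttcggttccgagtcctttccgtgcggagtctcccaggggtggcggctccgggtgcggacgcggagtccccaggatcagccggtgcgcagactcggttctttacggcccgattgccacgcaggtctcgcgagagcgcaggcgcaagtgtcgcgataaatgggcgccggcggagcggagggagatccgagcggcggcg
CENPT: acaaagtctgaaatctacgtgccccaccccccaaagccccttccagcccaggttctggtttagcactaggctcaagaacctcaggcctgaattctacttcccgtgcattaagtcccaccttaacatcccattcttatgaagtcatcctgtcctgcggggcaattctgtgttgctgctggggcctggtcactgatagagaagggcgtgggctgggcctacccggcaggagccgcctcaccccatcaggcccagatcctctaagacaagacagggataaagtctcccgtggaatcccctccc
MIS12: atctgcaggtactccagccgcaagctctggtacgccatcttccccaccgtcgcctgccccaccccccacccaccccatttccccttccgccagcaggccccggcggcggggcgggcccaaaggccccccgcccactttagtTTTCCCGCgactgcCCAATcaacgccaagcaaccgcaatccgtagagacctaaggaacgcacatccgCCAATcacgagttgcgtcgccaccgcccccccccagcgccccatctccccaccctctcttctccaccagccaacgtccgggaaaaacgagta

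Each of the 3 promoters of the strongly lowered genes holds a CHR match, and none of the other 3 does. BUB1 has 1 CHR and 2 CCAAT matches, CENPF 1 and 4, and NDC80 2 and 0. MIS12 has 2 CCAAT matches and 1 E2F match, while the windows of MAD1L1 and CENPT hold none of the letters searched. Over the 34 member promoters, 20 (58.8%) held a CHR match, against 14.1% of the 21328 promoters of genes tested. CCAAT matches were in 23 (67.6%), against 34.7%, and E2F matches in 3 (8.8%), against 2.7%. CHR and CCAAT stood together in 15 member promoters (44.1%), against 5.6%.

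Position was examined after these matches had been seen. A CHR match began within 50 bases of the start site in 18 member promoters (52.9%), against 4.1% of promoters of genes tested. Of the 11 members with a promoter and a change of -4 or below, 9 (81.8%) held a CHR match, and of the other 23, 11 (47.8%) did. For CCAAT the split ran the other way, with 6 of the 11 (54.5%) and 17 of the 23 (73.9%). The median change was -3.45 over the 20 members with a CHR match and -2.79 over the 14 without, with ranges of -6.10 to -0.37 and -5.30 to 0.80 that overlap widely. CENPE and CENPI changed by -5.30 and -4.23 with no match of any kind in the window, and ZW10, with a change of -0.37, has a CHR match far upstream (offset -224 bases from its start). These matches describe letters only, and the difference between members with and without them was not tested.

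**Figure D2:**
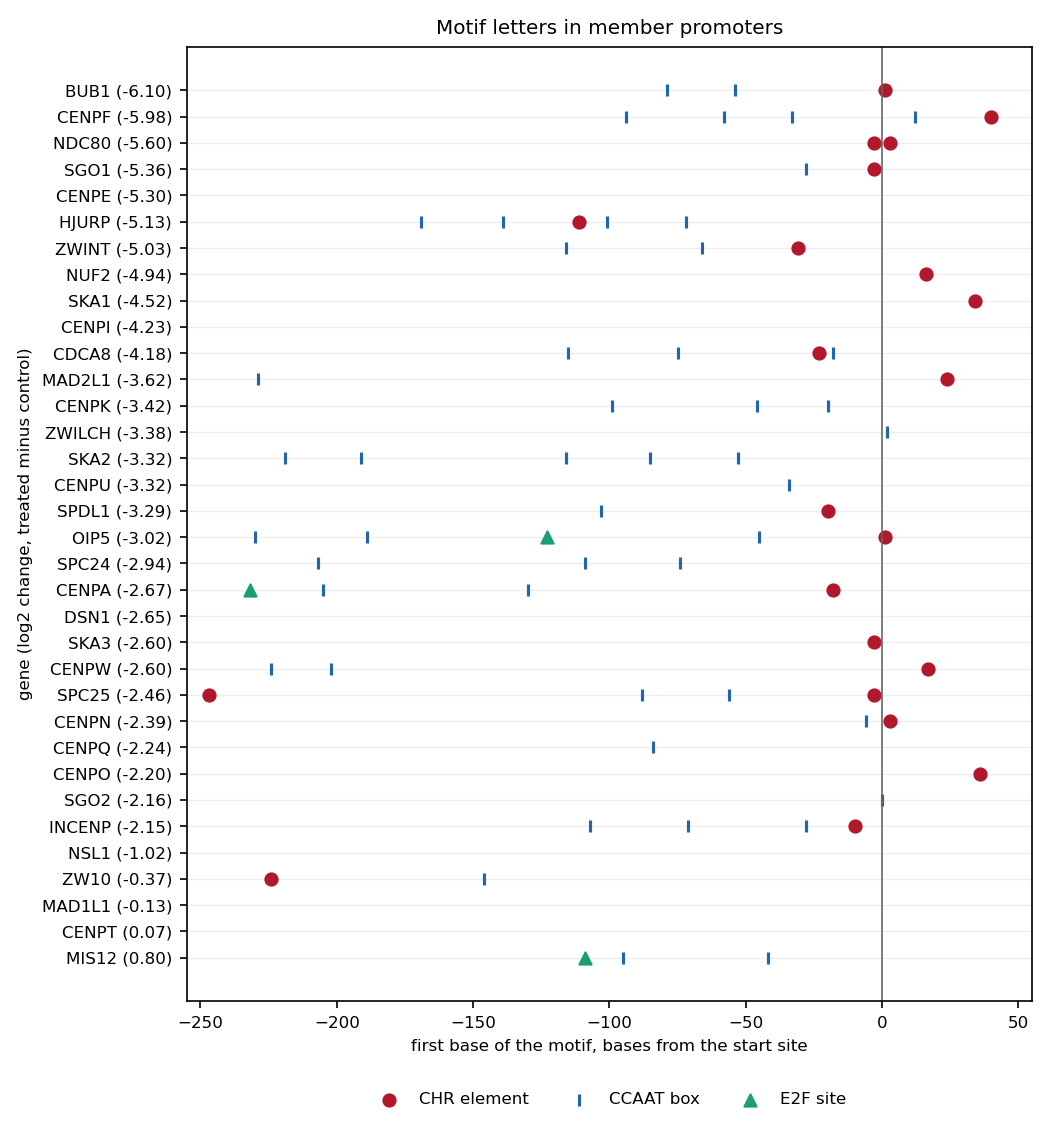
Position of CHR (circles), CCAAT (bars) and E2F (triangles) matches in the 34 member promoters, in bases from the start site (line at 0), with genes ordered by log2 change from the most negative at the top. CHR matches gather around the start site in rows from BUB1 (-6.10) down to INCENP (-2.15), and the rows of CENPE, CENPI, DSN1, NSL1, MAD1L1 and CENPT are empty.

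At the base of the centromere, all 4 genes of CENP-A and its deposition fell. HJURP, the chaperone that carries CENP-A to the centromere, was at 6.29, 6.08 and 6.16 in treated cells, against 11.21, 11.29 and 11.42 in control cells, a log2 change of -5.13 (SE 0.076, adjusted p = 2.57e-08). CENPA itself was at 6.84, 7.17 and 6.81 in treated and at 9.58, 9.67 and 9.58 in control cells, a change of -2.67. Both genes were thus far lower on every treated array than on any control array, and HJURP in treated cells was close to the low-signal mark. OIP5 and MIS18A encode subunits of the Mis18 complex, which licenses centromeres for new CENP-A. OIP5 was at 5.08, 4.69 and 5.05 in treated cells, below the low-signal mark, and at 7.85, 7.69 and 8.33 in control cells, a change of -3.02. MIS18A had the smallest fall of the 4, at 7.95, 7.90 and 7.78 in treated and 9.55, 9.46 and 9.62 in control cells (change -1.67, SE 0.064, adjusted p = 1.13e-06).

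The constitutive network fell in 10 of 11 measured genes, with changes from -4.23 to 0.07 and a median of -2.39. CENPI, CENPH, CENPK and CENPM encode one subcomplex of the network, and their changes were -4.23, -2.80, -3.42 and -0.85. CENPI was at 6.31, 6.34 and 6.38 in treated cells, against 10.56, 10.55 and 10.62 in control cells (SE 0.043, adjusted p = 9.97e-09). CENPM was at 6.17, 6.20 and 6.18 in treated and at 7.01, 7.01 and 7.08 in control cells, so that its groups were well apart although its signal was modest in both. In treated cells both genes were close to the low-signal mark. CENPM, whose control signal was within 1 unit of that mark, may have had little room for a larger fall. The sizes of the 2 falls thus cannot be compared with confidence.

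CENPN, which recognises the CENP-A nucleosome, averaged 9.69 ± 0.10 in treated and 12.08 ± 0.03 in control cells (SD, n = 3 each), a change of -2.39. Its partner CENPL changed by -0.99, with means of 7.12 ± 0.17 and 8.11 ± 0.03. CENPO, CENPQ and CENPU belong to the subcomplex that stabilises attachments and, through CENP-U, brings in the kinase PLK1. They changed by -2.20, -2.24 and -3.32, and CENPU, at 6.05, 5.93 and 5.87 in treated cells against 9.06, 9.26 and 9.49 in control cells, dropped under the low-signal mark. The row that names CENPP together with an unnamed locus was at 6.65, 6.42 and 6.67 in treated and 8.29, 8.24 and 8.38 in control cells, and what share of it is CENPP is unknown.

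CENPT and CENPW encode a histone-fold pair that links centromeric DNA to the NDC80 complex. CENPW was at 7.19, 7.48 and 6.91 in treated cells, against 9.61, 9.67 and 10.09 in control cells, a change of -2.60. CENPT was at 6.52, 6.41 and 6.63 in treated and at 6.47, 6.46 and 6.42 in control cells. The difference of 0.07 was not called (SE 0.062, adjusted p = 0.417, 95% interval -0.08 to 0.22). CENPT signals lay close to the low-signal mark in both groups, so whether a fall like that of CENPW could have been seen is uncertain. The CENPT gene overlaps THAP11 and NUTF2 in RefSeq.

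The NDC80 complex, the main microtubule coupler, fell in all 4 subunits. NDC80 was at 5.58, 5.66 and 5.57 in treated cells, against 11.26, 11.14 and 11.22 in control cells, a log2 change of -5.60 (SE 0.050, adjusted p = 6.29e-09). NUF2, which pairs with NDC80 at the microtubule end, was at 5.32, 5.48 and 5.70 in treated and at 10.38, 10.37 and 10.58 in control cells, a change of -4.94. Both were under the low-signal mark on every treated array and far above it on every control array. The other pair of subunits, which anchors the complex to the inner kinetochore, had smaller changes. SPC24 averaged 6.54 ± 0.19 in treated and 9.48 ± 0.16 in control cells, a change of -2.94, and SPC25 6.01 ± 0.11 in treated and 8.47 ± 0.12 in control cells, a change of -2.46 (SD, n = 3 each). SPC25 too was under the mark in treated cells, which leaves the size of its fall uncertain.

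The MIS12 complex, which ties the inner kinetochore to the NDC80 complex, did not move as one. DSN1 was at 8.04, 8.01 and 7.93 in treated cells, against 10.65, 10.67 and 10.60 in control cells, a change of -2.65 (SE 0.047, adjusted p = 4.74e-08). NSL1 was at 7.57, 7.68 and 7.52 in treated and at 8.66, 8.55 and 8.62 in control cells, a change of -1.02. MIS12 rose, with 9.69, 9.55 and 9.68 in treated cells against 8.91, 8.83 and 8.79 in control cells, a change of 0.80 (SE 0.057, adjusted p = 2.30e-05, 95% interval 0.66 to 0.93). Its groups did not overlap, and it was the 1 member with higher signals on every treated array. The MIS12 gene overlaps DERL2, which averaged 13.17 in treated and 12.30 in control cells, a change of 0.87 (adjusted p = 1.19e-05), and its part in the MIS12 signal was not tested. The row shared by PMF1, BGLAP and their readthrough was at 6.55, 6.74 and 6.62 in treated and 7.02, 7.17 and 6.98 in control cells. ZWINT, which binds the KNL1 scaffold, was at 6.15, 6.13 and 6.11 in treated and at 11.12, 11.16 and 11.20 in control cells, a change of -5.03 (SE 0.041).

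The SKA complex, which helps the NDC80 complex to follow shrinking microtubules, fell in all 3 subunits. SKA1 was at 6.02, 5.93 and 6.09 in treated cells, against 10.49, 10.51 and 10.59 in control cells (change -4.52, SE 0.056, adjusted p = 1.23e-08). SKA2 was at 9.12, 9.28 and 9.02 in treated and at 12.37, 12.50 and 12.50 in control cells, a change of -3.32. SKA2 thus kept a clear signal after treatment while SKA1 was under the low-signal mark. SKA3 had the smallest change of the complex, -2.60 (SE 0.044), with 6.28 ± 0.03 in treated and 8.88 ± 0.05 in control cells (SD, n = 3 each). In treated cells SKA3 was close to the low-signal mark, and its control signal was the lowest of the complex, so the size of its fall is uncertain.

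The corona genes fell in all 6 cases. CENPF, a large microtubule-binding protein of the outer kinetochore, was at 6.45, 6.42 and 6.44 in treated cells, against 12.42, 12.39 and 12.43 in control cells, a change of -5.98 (SE 0.038, adjusted p = 5.97e-09). CENPE, the kinesin that carries chromosomes to the spindle equator, was at 6.94, 6.75 and 6.71 in treated and at 11.95, 12.20 and 12.16 in control cells, a change of -5.30. Both genes were not far above the low-signal mark on the treated arrays, and their groups were widely separated.

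The RZZ complex recruits dynein and the checkpoint pair MAD1 and MAD2, and its 3 genes differed. KNTC1, which encodes ROD, was at 7.46, 7.49 and 7.37 in treated cells, against 10.96, 10.96 and 10.99 in control cells, a change of -3.53. ZWILCH was at 10.01, 10.01 and 9.95 in treated and at 13.35, 13.37 and 13.39 in control cells, a change of -3.38 with signals well above the low-signal mark in both groups. ZW10, which also works in membrane traffic between the endoplasmic reticulum and the Golgi, was at 8.67, 8.56 and 8.52 in treated and at 8.95, 8.93 and 8.98 in control cells. Its change of -0.37 was called (SE 0.051, adjusted p = 7.58e-04), with groups that did not overlap, and its 95% interval (-0.49 to -0.25) lies far from those of KNTC1 (-3.64 to -3.42) and ZWILCH (-3.48 to -3.28). SPDL1, the dynein adaptor Spindly, fell by 3.29, with 7.72 ± 0.10 in treated and 11.01 ± 0.04 in control cells (SD, n = 3 each).

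Among the checkpoint genes proper, 4 of 5 measured fell and the sizes split into large and small. BUB1, a kinase that marks centromeric histone H2A, had the most negative change of all members, at 6.22, 6.32 and 6.33 in treated cells against 12.37, 12.28 and 12.53 in control cells, a change of -6.10 (SE 0.072, adjusted p = 1.09e-08). It ranked number 9 from the bottom among all genes. TTK, the kinase MPS1 that starts the checkpoint signal, was at 5.80, 5.85 and 5.69 in treated and at 9.84, 9.94 and 10.00 in control cells, a change of -4.15. MAD2L1, the MAD2 protein that holds back CDC20, was at 6.79, 6.78 and 6.51 in treated and at 10.14, 10.34 and 10.45 in control cells, a change of -3.62. TTK was under the low-signal mark on every treated array, and BUB1 and MAD2L1 were not far above it.

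BUB3 and MAD1L1 moved little. BUB3, the adaptor that docks BUB1 and BUBR1 on KNL1, was at 11.64, 11.59 and 11.63 in treated cells, against 12.41, 12.48 and 12.52 in control cells, a change of -0.85 (SE 0.045, adjusted p = 5.30e-06). Its signal was well above the low-signal mark in both groups, which did not overlap. MAD1L1, the MAD1 platform for MAD2, was at 6.88, 6.79 and 6.74 in treated and at 6.92, 6.95 and 6.94 in control cells, a change of -0.13 that was not called (SE 0.048, adjusted p = 0.0621, 95% interval -0.25 to -0.02). Its groups did not overlap but were separated by a few hundredths of a unit, and its signals, like those of CENPT, were close to the low-signal mark. It was called lower under 4 of the alternative settings, among them the fit without treated replicate 1 (adjusted p = 0.0239). The row shared by PAK6 and BUB1B was at 6.67, 6.82 and 6.94 in treated and at 9.94, 10.11 and 10.10 in control cells, a change of -3.24 (adjusted p = 1.69e-06 over all 67528 rows), and the share of BUB1B in it is unknown.

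The chromosomal passenger and shugoshin genes all fell, with changes of -5.36 to -2.15. SGO1, which guards centromeric cohesin until anaphase, was at 5.95, 6.06 and 5.87 in treated cells, against 11.26, 11.34 and 11.35 in control cells (change -5.36, SE 0.060, adjusted p = 1.09e-08). Its relative SGO2 was at 6.91, 6.67 and 6.59 in treated and at 8.95, 8.76 and 8.93 in control cells, a smaller change of -2.16. CDCA8, which encodes borealin, was at 5.87, 5.74 and 5.50 in treated and at 9.82, 9.95 and 9.89 in control cells, a change of -4.18. SGO1 and CDCA8 were both under the low-signal mark after treatment. INCENP, the scaffold that activates Aurora B, fell by 2.15 (SE 0.051), with 7.61 ± 0.05 in treated and 9.76 ± 0.07 in control cells (SD, n = 3 each). BIRC5, the gene of survivin, had the largest spread of any member within the treated group, at 7.87, 7.33 and 8.08 in treated and at 10.21, 10.19 and 10.11 in control cells, a change of -2.41 (SE 0.177, adjusted p = 2.67e-05).

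**Figure D3:**
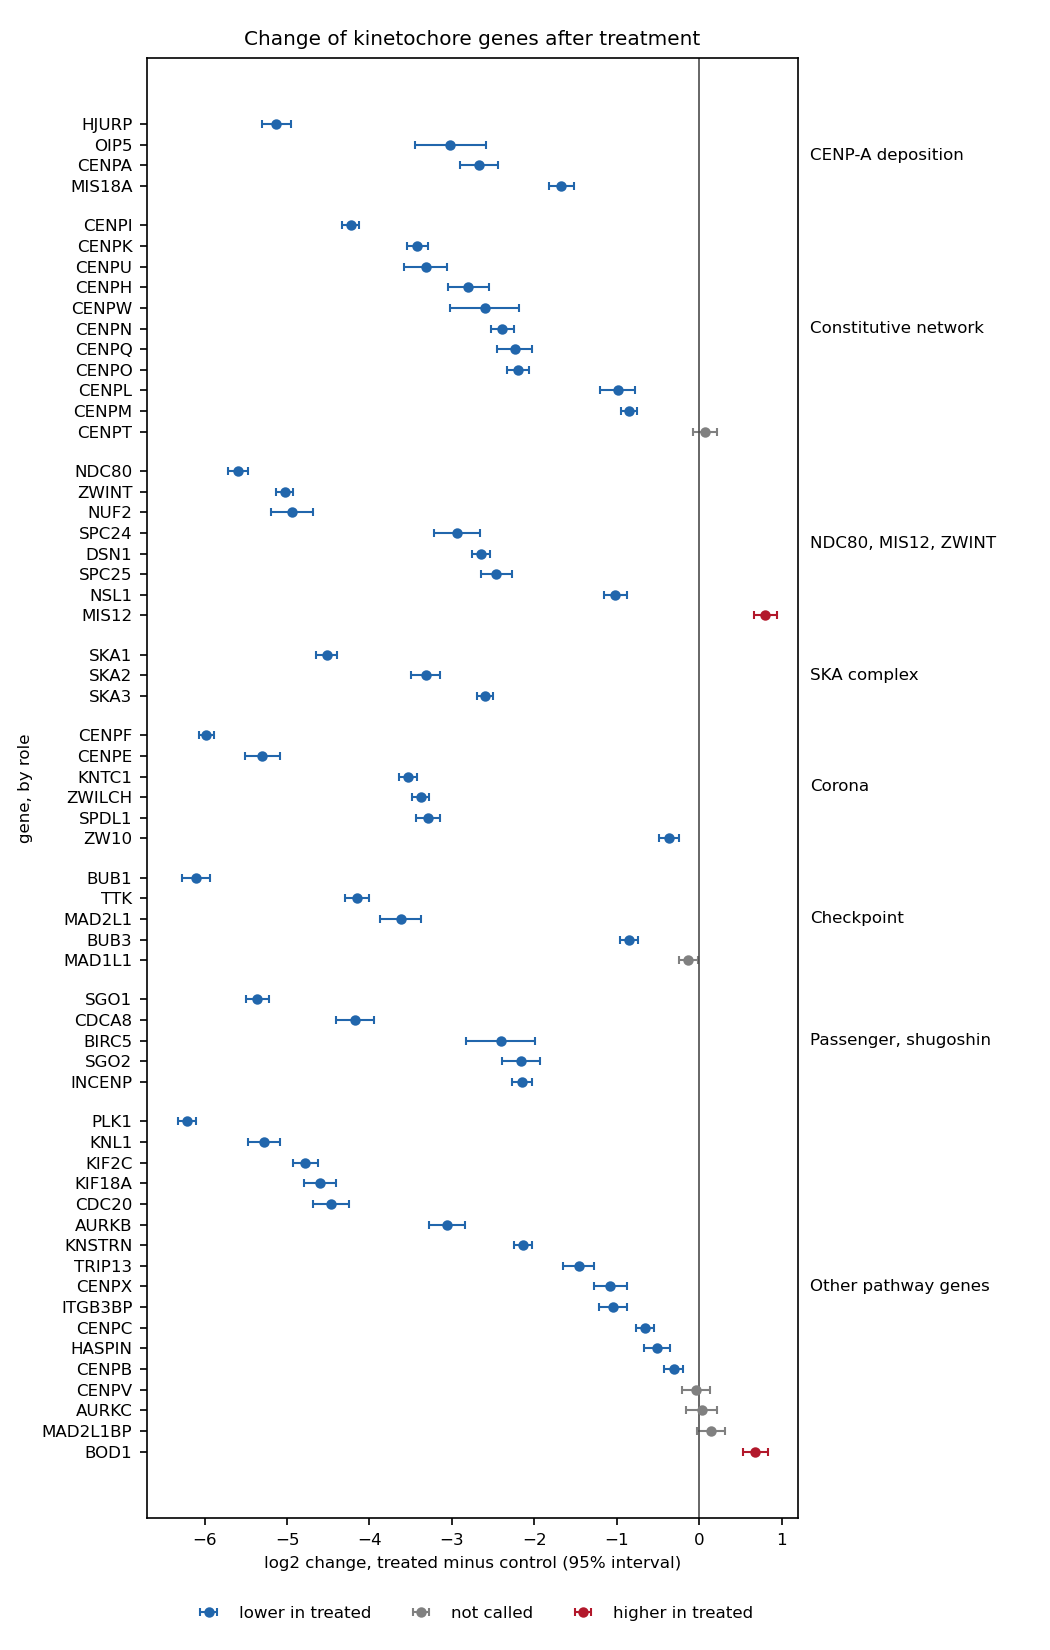
Log2 change, treated minus control, of each measured member and of the other pathway genes, with 95% intervals from limma, grouped by role. Within most roles the changes range from about -4 or below to above -3, and the genes at or right of -1 are CENPL, CENPM, CENPT, MIS12, ZW10, BUB3 and MAD1L1 among the members.

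Set side by side, the 3 layers of the kinetochore had similar shares of lowered genes. The constitutive layer, with CENP-A and its loaders, fell in 14 of 15 genes with a median change of -2.60. The outer layer, with NDC80, MIS12 and SKA genes and ZWINT, fell in 10 of 11 with a median of -2.94, and the checkpoint and corona genes fell in 10 of 11 with a median of -3.53. Passenger and shugoshin genes fell in 5 of 5 with a median of -2.41. A fall of 4 or more was reached by 2, 4, 4 and 2 genes of these groups, in the same order. The ranges overlapped almost wholly, at -5.13 to 0.07 in the constitutive, -5.60 to 0.80 in the outer and -6.10 to -0.13 in the checkpoint and corona group, and the differences between groups were not tested, since genes of a group are not replicates. Every layer but the passenger and shugoshin group held at least 1 gene with a change above -1: CENPL, CENPM and CENPT in the constitutive, MIS12 in the outer, and BUB3, MAD1L1 and ZW10 in the checkpoint and corona group. Of these, CENPM, CENPT and MAD1L1 had control signals within 1 unit of the low-signal mark. That mark is not a floor, since OIP5 averaged 4.94 in treated cells, so how large a fall CENPM, CENPT and MAD1L1 could have shown is uncertain.

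**Figure D4:**
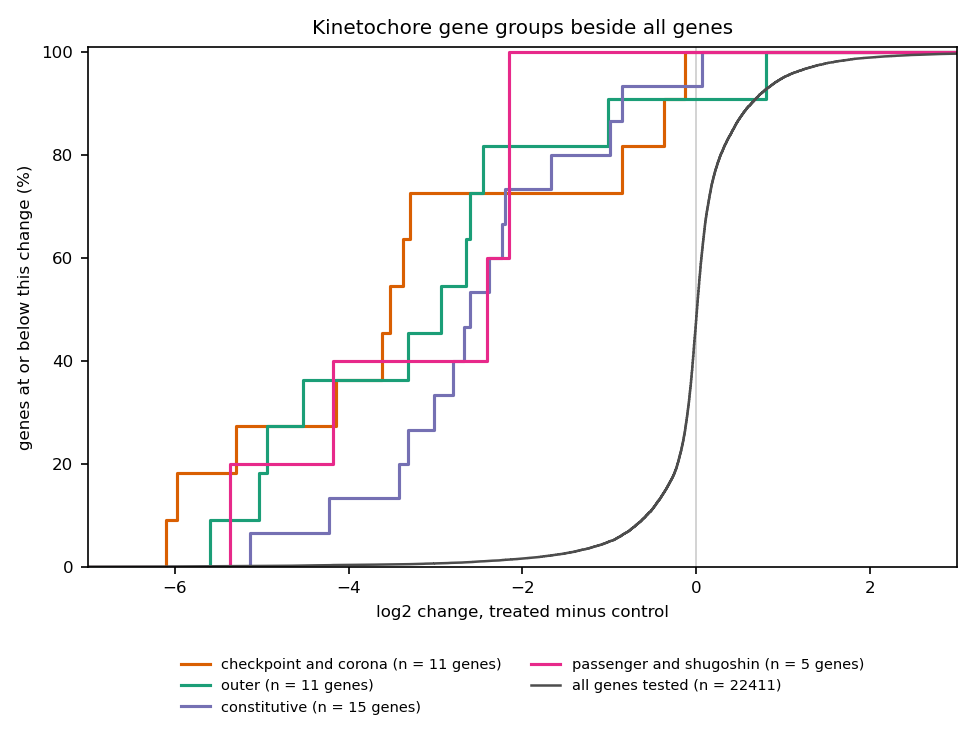
Cumulative share of genes (percent, vertical axis) at or below each log2 change, treated minus control (horizontal axis), for the 4 groups of members and for all 22411 genes tested. All 4 member curves rise far to the left of the curve of all genes, whose median is 0.01, and they cross each other.

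Other genes of the same structures were listed apart from the members, with earlier results of these data known, and 17 of 20 had a row of their own. Of these, 13 fell, 1 rose and 3 did not pass the test, where 21.6% of all genes were called lower and 24.0% higher. The median change of the 17 was -1.08. The 3 largest falls were in PLK1, a mitotic kinase, KNL1, the checkpoint scaffold that completes the NDC80 and MIS12 network, and KIF2C, a microtubule-depolymerising kinesin, at -6.21, -5.28 and -4.78. KNL1 was at 6.04, 6.11 and 6.02 in treated cells, against 11.21, 11.28 and 11.53 in control cells, with no overlap. KIF18A, CDC20, AURKB, KNSTRN and TRIP13 also fell, with changes of -4.60, -4.47, -3.06, -2.14 and -1.46.

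Inner genes outside the member list had small falls. CENPC, the network's main link to CENP-A chromatin, was at 8.00, 7.88 and 7.93 in treated cells, against 8.55, 8.62 and 8.61 in control cells, a change of -0.66. CENPX changed by -1.08, ITGB3BP (CENP-R) by -1.05 and CENPB, which binds satellite DNA, by -0.31. CENPB was close to the low-signal mark in both groups, with means of 6.12 in treated and 6.43 in control cells, so a larger fall might not have been seen. HASPIN, the histone H3 kinase that places the passenger complex, changed by -0.51. BOD1, an inhibitor of a phosphatase at the kinetochore, rose, with 9.74, 9.90 and 9.78 in treated cells against 9.22, 9.07 and 9.09 in control cells, a change of 0.68 (SE 0.063, adjusted p = 8.97e-05). MAD2L1BP, the p31comet protein that takes MAD2 out of checkpoint complexes, had a change of 0.15 (adjusted p = 0.147). CENPV at -0.04 and AURKC at 0.03 were under the low-signal mark in both groups (adjusted p = 0.696 for CENPV and 0.821 for AURKC), so a fall might not have been seen well. The rows shared by CENPS and by SPAG5 with other genes had changes of -0.35 and -1.70.

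Common reference genes also differed between the groups. ACTB and GAPDH changed by -1.46 and -0.51, and TBP by 0.34, all called. The small changes of ZW10, BUB3, MAD1L1 and CENPT are thus of the size seen in reference genes, as are the falls of CENPL, CENPM and NSL1. The rise of MIS12, at 0.80, was larger than that of TBP, the reference gene that rose, but smaller in size than the fall of ACTB. The changes of BUB1, CENPF and NDC80 are several times larger than those of the reference genes. In RefSeq, 8 measured members overlap a protein-coding gene (CENPL, CENPM, CENPO, CENPT, CENPU, SPC25, MIS12 and ZWILCH), and what those neighbours add to their signals was not tested.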

How the data were processed

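Biotin-labelled total RNA was measured on Affymetrix whole-transcript arrays, from 100 ng per array with an integrity number above 8, per the labels' protocols. Signals were deposited on a log2 scale, with 1 value for each transcript cluster and array. According to the submitters' processing notes, the authors used RMA and Transcriptome Analysis Console (version 4.0.1.36), which brings arrays to a like distribution (medians of 5.18 to 5.24 over all rows), so a difference in RNA content per cell may be hidden. The table ran from 2.44 to 19.46, and 181 to 196 values per array exceeded 16, the limit of a 16-bit scan, so the scale may have been stretched. Neither such a step nor the genome build is given in the sources used here.

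Rows with 1 symbol were named through the platform annotation, updated by the GRCh38.p14 RefSeq table, and the highest-mean row per gene was kept. The 3 treated arrays were set against the 3 control arrays by limma (version 3.58.1, R 4.3.3, 4 residual degrees of freedom), with p adjusted by Benjamini-Hochberg over 22411 genes and no filter on level. The fit was also run on simulated arrays with independent noise, a check of the code that does not give the error rate in these data. Array number limits the precision. Members, lists and settings were chosen with earlier results of these data known. Described in full were the extremes of each role, the members not called or higher, and others for completeness. Same-numbered arrays of the 2 groups did not deviate together (correlations of -0.08, 0.04 and -0.05), so no pairing was used. Settings tried were the 16 listed in the closing section and a minimum change. Figures used matplotlib 3.10.9.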

Additional observations from a re-analysis of the deposited data

How the results depend on the processing

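All 39 falls and the rise of MIS12 kept their direction and their call under 16 other settings: low-signal genes left out, all rows fitted, rows averaged, centred arrays, repeated quantile normalization, trend with robust estimation, array weights, protein-coding genes alone, a compressed scale, a replicate block and each array left out. Of 672 values of single members under them, 668 kept direction and side of the threshold, and the other 4 were of MAD1L1, called lower without low-signal genes (adjusted p = 0.0307), with array weights (adjusted p = 0.0467), among protein-coding genes (adjusted p = 0.0398) and without treated replicate 1 (adjusted p = 0.0239). Part of this was fixed in advance. Compressing the scale cannot alter a call, and averaging rows cannot alter the change of a member with 1 row. Direction could not differ with low-signal or noncoding genes left out, all rows fitted, trend with robust estimation or the replicate block. Those settings leave each log2 change as it was, so only the call could differ. With the replicate number as a block, 39 members were lower and 1 higher, as without it, and no call of a member changed. Over all genes the block gave 4491 lower and 5086 higher. Compressing the scale to a highest value of 16 moved the medians to -2.13 (constitutive), -2.41 (outer), -2.90 (checkpoint and corona) and -1.98 (passenger and shugoshin), by construction. The changes of BUB1, CENPF and NDC80 became -5.02, -4.91 and -4.61. Leaving out 1 array at a time gave medians of -2.74 to -2.45 for the constitutive and -2.57 to -2.19 for the passenger and shugoshin group. Requiring a log2 change of at least 1 (limma's treat) left 34 members lower and 0 higher (0 also at an unadjusted p under 0.05), 8 other pathway genes lower, and 792 lower and 716 higher among all genes, against 4843 and 5369 without it. Fewer genes pass by construction. Falls that end near background have an uncertain size.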
